A study of Mus musculus with 12 samples.

Results

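The genes described here encode 38 complement and coagulation proteins that the liver makes and secretes into plasma. They were found by gene symbol among the 53796 genes of an expression table from mouse liver, and each of the 38 matched. The set holds 10 clotting factors and contact-system genes besides the 3 fibrinogen chains, 5 anticoagulants and protease inhibitors, 3 genes of fibrinolysis and its control, 4 genes of the lectin pathway, 3 of the classical pathway and its central component C3, Cfb of the alternative pathway, 6 terminal complement genes, and 3 further genes, Cfi, C4bp and Vtn.

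Total RNA of mouse liver was sequenced in 12 libraries to study ischemia, the loss of blood supply to a tissue. The Sham group was wild type and carried the label sham. The other 3 groups were wild type (WT), a line with the RIPK1 D138N allele and a line labelled TNFR1/2 KO, and the title and design text place them in the ischemia arm. Each group had 3 libraries, no sham library of either mutant was analysed here, and neither the duration of ischemia, the time of collection, the age nor the sex is stated in the labels. RIPK1 relays signals from TNF receptors toward inflammation or cell death, and the D138N allele is known as kinase-dead. TNFR1/2 KO refers to both receptors for TNF, an inflammatory cytokine. The labels do not say whether the libraries of a group came from separate animals, so a p-value measures only the spread between these libraries. Libraries of WT and Sham could be matched to their group but not to a replicate number, so the order of their values below carries no meaning.

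Hepatocytes make most plasma clotting and complement proteins. Coagulation is a chain of proteases that ends in thrombin, which cuts fibrinogen to fibrin. Antithrombin, heparin cofactor II and protein C hold thrombin or its formation in check, and plasmin dissolves the clot. Complement is a second chain of plasma proteases. Mannose-binding lectins or antibodies start it, C3 joins its branches, and C5 to C9 assemble into a pore in membranes. Many of these proteins, fibrinogen and C3 among them, are known to be induced in the acute-phase response.

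Sequences are shown for the genes whose values set them apart below: the 3 fibrinogen genes, which lie side by side on chromosome 3, and C6, C8a, C8b and C9. RefSeq promoter windows on GRCm38.p6, from 250 bases before to 50 after the start of a gene, were found for 29 of the 38 genes. The lines below give up to 200 bases of the window, 5′ to 3′ on the strand of the gene and outside the GENCODE M21 bounds of the gene, and capitals mark motif matches that lie whole within the printed bases.
Fga (chr3:83025903-83026075, plus strand): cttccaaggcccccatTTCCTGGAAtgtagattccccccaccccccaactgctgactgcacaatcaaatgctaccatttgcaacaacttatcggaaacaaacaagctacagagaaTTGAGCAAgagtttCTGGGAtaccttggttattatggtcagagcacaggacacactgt
Fgb (chr3:83049864-83050063, minus strand): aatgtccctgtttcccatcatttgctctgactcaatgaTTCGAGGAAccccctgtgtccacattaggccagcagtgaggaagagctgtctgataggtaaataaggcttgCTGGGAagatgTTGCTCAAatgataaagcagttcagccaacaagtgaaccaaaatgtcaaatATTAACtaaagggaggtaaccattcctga
Fgg (chr3:83007524-83007723, plus strand): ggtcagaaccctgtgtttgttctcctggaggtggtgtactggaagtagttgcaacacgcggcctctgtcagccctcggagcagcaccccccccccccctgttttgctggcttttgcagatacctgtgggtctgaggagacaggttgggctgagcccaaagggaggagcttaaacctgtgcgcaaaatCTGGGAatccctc
C6 (chr15:4726975-4727174, plus strand): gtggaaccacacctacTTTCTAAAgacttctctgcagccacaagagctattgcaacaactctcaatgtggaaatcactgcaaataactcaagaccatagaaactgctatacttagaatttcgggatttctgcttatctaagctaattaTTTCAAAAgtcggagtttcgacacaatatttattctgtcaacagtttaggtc
C8a (chr4:104876399-104876598, minus strand): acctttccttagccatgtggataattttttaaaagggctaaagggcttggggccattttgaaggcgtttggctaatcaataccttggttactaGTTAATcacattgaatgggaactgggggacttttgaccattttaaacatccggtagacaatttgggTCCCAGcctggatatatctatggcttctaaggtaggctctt
C8b (chr4:104766117-104766316, plus strand): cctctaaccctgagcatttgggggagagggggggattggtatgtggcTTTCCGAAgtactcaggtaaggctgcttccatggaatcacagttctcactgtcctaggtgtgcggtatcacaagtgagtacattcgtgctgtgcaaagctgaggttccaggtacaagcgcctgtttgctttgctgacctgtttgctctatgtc
C9 (chr15:6445127-6445326, plus strand): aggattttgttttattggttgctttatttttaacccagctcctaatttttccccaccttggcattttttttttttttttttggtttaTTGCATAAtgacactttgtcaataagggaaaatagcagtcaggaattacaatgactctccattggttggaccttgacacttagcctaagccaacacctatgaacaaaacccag

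Motifs of 5 liver or acute-phase factors were searched on both strands of the whole windows. The HNF1 core motif GTTAAT was in 9 of the 29 promoters (31.0%), against 7.1% of 32851 promoter windows of the same length. Fga and Fgb, but not Fgg, were among the 9, as were C8a, C8b and Hc. The printed Fga bases leave out its match, which lies inside the GENCODE bounds of the gene, and the match of C8b lies upstream of its printed bases. The C/EBP motif TTNNGNAA was in 17 (58.6%) against 40.7%, the STAT motif TTCNNNGAA in 7 (24.1%) against 8.3%, and the IL-6 type 2 element CTGGGA in 16 (55.2%) against 31.8%. The HNF4 motif CAAAGTCC was in 0 of 29 against 1.42%. STAT and CTGGGA matches can overlap, as they did in F9 and Masp2. Each of the 3 fibrinogen windows held CTGGGA, and those of Fga and Fgb also held a C/EBP and a STAT match. A match is a run of letters and was not tested as a binding site.

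Expression is given in FPKM, fragments scaled to transcript length and depth, so that levels can be compared between genes. Differences were tested with limma on log2(FPKM + 1) over the 11728 genes that reached 1 FPKM in 3 or more libraries, and all 38 genes passed this filter. A gene was called when its Benjamini-Hochberg adjusted p was under 0.05, and a log2 fold change is a difference on that scale. None of the 38 was listed at 0 in any group. Fga had the highest group mean in Sham (8835 ± 1643 FPKM, SD, n = 3) and Masp1 the lowest (20.2 ± 6.23 FPKM, SD, n = 3).

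The libraries differed in ways that bear on these genes. Summed FPKM ran from 649373 to 750501 in Sham, 288934 to 303514 in WT, 489348 to 518580 in RIPK1 D138N and 441296 to 512931 in TNFR1/2 KO. Hepatocyte markers were high in each library, with 10 markers summing to 45114 to 53463 FPKM in Sham, 9892 to 14579 in WT, 34543 to 38541 in RIPK1 D138N and 33497 to 41969 in TNFR1/2 KO, although Alb was listed at 0 in all 12. All 10 of these markers fell in WT against Sham (median log2 fold change -2.46), where 41.9% of all genes were called lower. All 10 were higher than WT in RIPK1 D138N and in TNFR1/2 KO, where 29.8% and 29.6% of all genes were called higher. In bulk tissue, fewer hepatocytes and less RNA per hepatocyte cannot be told apart. Xist, which is transcribed from the inactive X chromosome, read 20.1 and 23.4 FPKM in RIPK1 D138N replicates 2 and 3, against 0.0824 FPKM at most in the other 10 libraries. The gene for TNFR1, Tnfrsf1a, averaged 18.5 ± 3.28 FPKM in the libraries labelled TNFR1/2 KO, beside 19.8 ± 1.09 in RIPK1 D138N, 35.1 ± 2.90 in WT and 69.5 ± 16.5 in Sham (SD, n = 3). The gene for TNFR2, Tnfrsf1b, averaged 6.83 ± 2.70 FPKM in TNFR1/2 KO, beside 5.52 ± 0.499 in RIPK1 D138N, 9.51 ± 1.20 in WT and 6.92 ± 2.69 in Sham. For both genes the libraries labelled TNFR1/2 KO were within 1 SD of another group. A value for a whole gene does not show whether part of it was deleted.

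In wild-type liver, nearly the whole set was lower after ischemia than in Sham. Of the 38 genes, 36 were called lower and 0 higher in WT, where 41.9% of all genes tested were called lower and 16.4% higher (limma, adjusted p under 0.05). Only Cfb and C6 were not called. The median log2 fold change of the 38 was -1.76, beside -0.36 for all genes. After median-of-ratios scaling, which set the median of all genes to -0.001, the median of the 38 was -1.28 and 32 were called lower, beside 26.2% of all genes called lower and 28% higher. Mbl1 fell most, to a level 8.33-fold below Sham.

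In both mutants most of the set stood above WT. RIPK1 D138N had 25 genes called higher and 4 lower than WT, where 29.8% and 21.9% of all genes were called. TNFR1/2 KO had 29 called higher and 3 lower, where 29.6% and 17.5% were called. The median log2 fold changes of the 38 were 1.12 and 1.70, beside 0.11 and 0.14 for all genes. These comparisons share the WT libraries. Those called lower than WT were the 3 fibrinogen chains in both mutants and, in RIPK1 D138N, also Cpb2. Pros1, Serpinf2, C3 and C6 were called in neither mutant, F11, Masp1, C8a, C8b and C9 were not called in RIPK1 D138N, and Cpb2 and Cfb were not called in TNFR1/2 KO.

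**Figure D1:**
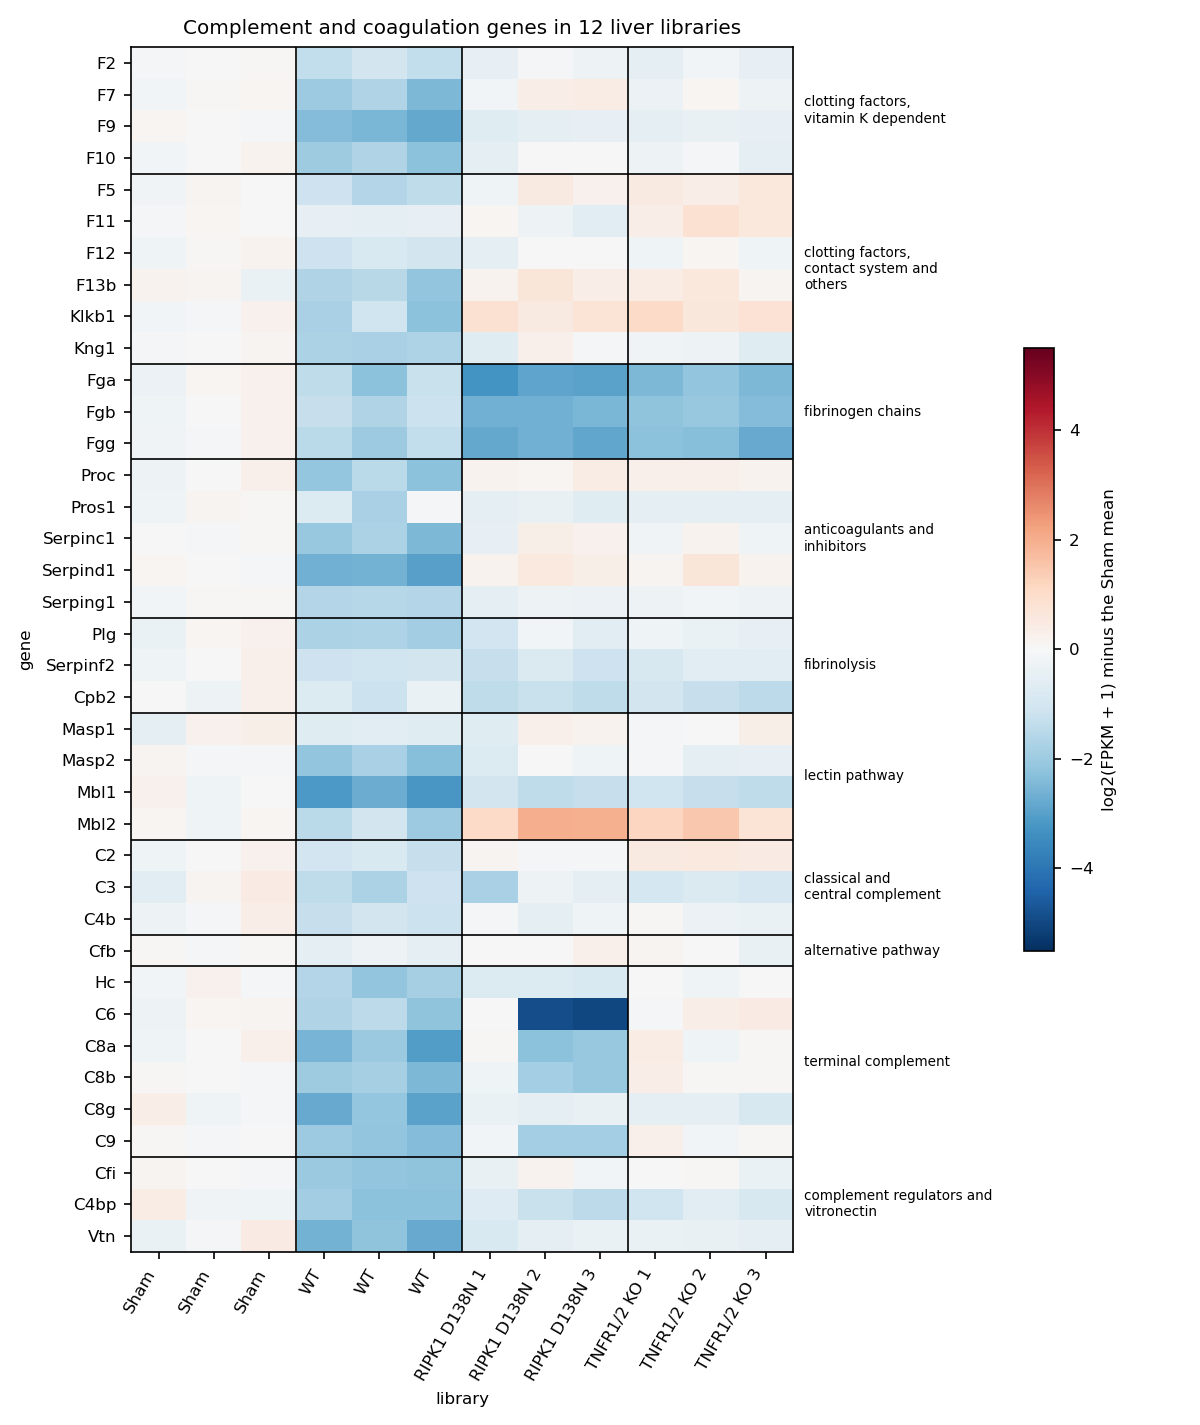
Each cell gives log2(FPKM + 1) of a gene (rows, grouped by role) in a library (columns) minus the mean of the Sham libraries, blue lower and red higher. WT is blue for nearly all 38 genes, the fibrinogen rows are blue in WT and in both mutants, Mbl2 is red in both, and C6, C8a, C8b and C9 are blue in RIPK1 D138N replicates 2 and 3 but not in replicate 1.

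Relative to Sham, most of the set was not called in either mutant, and the median log2 fold changes of the 38 were -0.36 in RIPK1 D138N and -0.18 in TNFR1/2 KO. RIPK1 D138N had 1 gene called higher and 13 lower, where 7.51% and 22.7% of all genes were called, and TNFR1/2 KO had 3 higher and 8 lower, where 7.46% and 18.1% were called. These counts moved with the scaling. After median-of-ratios scaling they were 4 higher and 8 lower (12.1% and 10.3% of all genes) and 6 higher and 5 lower (10.9% and 9.09%). A p that misses the threshold does not show that a gene had returned to its Sham level, and the comparisons share the Sham libraries.

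The vitamin K-dependent clotting factors F2, F7, F9 and F10 all fell in WT and were all higher in each mutant than in WT. F2 encodes prothrombin, the precursor of thrombin. It read 698, 760 and 777 FPKM in Sham, 294, 368 and 290 in WT, 549, 690 and 609 in RIPK1 D138N, and 525, 673 and 548 in TNFR1/2 KO. The WT libraries lay below all others, and both mutants overlapped each other (WT against Sham: log2 fold change -1.23, SE 0.177, limma adjusted p = 6.98e-05). F9, factor IX, read 76.1, 69.9 and 64.3 FPKM in Sham, 12.6, 11.5 and 9.14 in WT, 43.7, 50.0 and 50.9 in RIPK1 D138N, and 48.4, 53.2 and 50.6 in TNFR1/2 KO. F9 was thus 6.31-fold lower in WT than in Sham, and in the mutants it stood between the 2 wild-type groups. It was called lower than Sham in both mutants (-0.53, adjusted p = 0.0214, and -0.46, adjusted p = 0.0456, limma), but in neither after median-of-ratios scaling. F7, the protease that starts clotting together with tissue factor, read 38.5, 44.4 and 45.8 FPKM in Sham, 9.83, 13.1 and 6.84 in WT, 37.9, 54.7 and 57.5 in RIPK1 D138N, and 34.1, 46.5 and 34.8 in TNFR1/2 KO. Its mutant libraries spanned the Sham range. F10, the factor that activates prothrombin, went from 277 ± 34.3 FPKM in Sham to 71.0 ± 15.2 in WT, with 246 ± 46.4 in RIPK1 D138N and 225 ± 35.9 in TNFR1/2 KO (SD, n = 3).

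Among the contact-system genes and remaining factors, all 6 fell in WT, 5 were higher than WT in RIPK1 D138N and 6 in TNFR1/2 KO. Klkb1 encodes plasma prekallikrein, which is activated with factor XII. It read 28.4, 29.9 and 36.8 FPKM in Sham, 8.45, 14.4 and 5.73 in WT, 57.3, 44.2 and 54.4 in RIPK1 D138N, and 67.1, 48.8 and 55.8 in TNFR1/2 KO. All 6 mutant libraries lay above all 3 Sham libraries. The difference from Sham was called in TNFR1/2 KO (0.83, SE 0.258, limma adjusted p = 0.0331) and missed the threshold in RIPK1 D138N (0.70, SE 0.258, adjusted p = 0.0574). F11, factor XI, read 20.8, 24.2 and 23.2 FPKM in Sham, 16.3, 15.9 and 16.2 in WT, 24.4, 18.5 and 14.7 in RIPK1 D138N, and 29.9, 41.6 and 33.9 in TNFR1/2 KO. F11 had a small fall in WT (-0.47, SE 0.186, limma adjusted p = 0.0456) that was not called after median-of-ratios scaling (-0.01). Its TNFR1/2 KO libraries lay above every other library, and the direct difference between the mutants just missed the threshold (-0.85, SE 0.186, limma adjusted p = 0.0538). Kng1, which encodes kininogen, read 801, 839 and 951 FPKM in Sham, 260, 250 and 268 in WT, 544, 1035 and 816 in RIPK1 D138N, and 760, 711 and 540 in TNFR1/2 KO. The spread of Kng1 was widest in RIPK1 D138N, where 1 library was the highest and 1 was below all Sham libraries. F5, the cofactor of factor X, F12 and F13b, the carrier subunit of factor XIII, fell in WT by 1.37, by 0.98 and by 1.79 on the log2 scale, and were higher than WT in both mutants. F12 was no longer called in RIPK1 D138N against WT without the Xist-positive libraries (0.45, limma adjusted p = 0.206). With the trend of fold change on transcript length removed, F12 was not called in WT against Sham (-0.34) or in either mutant against WT (0.39 and 0.46).

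The fibrinogen chains Fga, Fgb and Fgg form 1 hexameric protein and moved together. All 3 fell in WT, and all 3 were lower again in both mutants, where most of the set was higher than WT. Fga read 7007, 9307 and 10190 FPKM in Sham, 3301, 1807 and 3704 in WT, 903, 1174 and 1146 in RIPK1 D138N, and 1579, 1911 and 1580 in TNFR1/2 KO. Fgb read 3726, 4514 and 5163 FPKM in Sham, 1851, 1406 and 1934 in WT, 706, 717 and 780 in RIPK1 D138N, and 958, 1045 and 850 in TNFR1/2 KO. Fgg read 6468, 7151 and 8668 FPKM in Sham, 2657, 1852 and 2846 in WT, 1050, 1189 and 1007 in RIPK1 D138N, and 1557, 1473 and 1092 in TNFR1/2 KO. The group means thus ran in the order Sham, WT, TNFR1/2 KO, RIPK1 D138N for each chain, and for Fgb no 2 groups overlapped.

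The log2 fold changes in RIPK1 D138N against WT were -1.39 for Fga, -1.22 for Fgb and -1.16 for Fgg (SE 0.272, 0.198 and 0.227, limma adjusted p = 0.000941, 0.000229 and 0.000965). In TNFR1/2 KO against WT they were -0.74, -0.85 and -0.83 (SE as before, limma adjusted p = 0.0407, 0.00335 and 0.00931). The Fga call in TNFR1/2 KO was weak: WT and TNFR1/2 KO libraries overlapped, and the call held under 7 of 15 alternative settings. Relative to Sham, Fga was 8.22-fold lower in RIPK1 D138N and 5.23-fold lower in TNFR1/2 KO. Between the mutants no chain was called, and the largest of the 3 differences was that of Fga (-0.66, SE 0.272, limma adjusted p = 0.334). After median-of-ratios scaling and with the Xist-positive libraries left out, all 3 chains were still called lower in RIPK1 D138N than in WT, each taken alone. Fibrinogen made up 59.5 to 62.7% of the summed FPKM of the 38 genes in Sham, 54.4 to 69.1% in WT, 21.3 to 23.4% in RIPK1 D138N and 26.8 to 28.3% in TNFR1/2 KO. The other 35 genes summed to 11686 to 14772 FPKM in Sham, 3788 to 4252 in WT, 8709 to 11379 in RIPK1 D138N and 9605 to 11195 in TNFR1/2 KO. The share of fibrinogen in the set overlapped between Sham and WT and was lower in every mutant library.

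**Figure D2:**
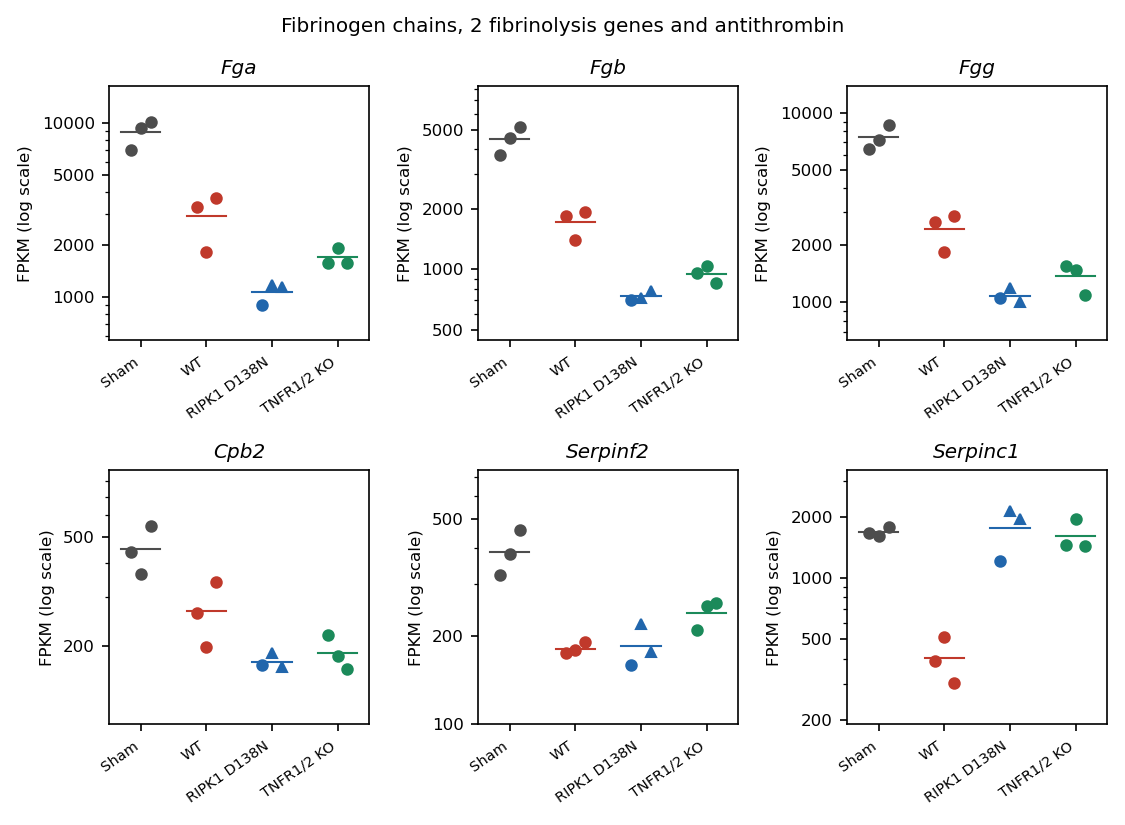
FPKM on a log scale in each library (points) with group means (lines) for the fibrinogen chains Fga, Fgb and Fgg, for Cpb2 and Serpinf2, which restrain fibrinolysis, and for Serpinc1, antithrombin. Triangles mark the Xist-positive libraries. The chains step down from Sham to WT to the mutants, while Serpinc1 is low only in WT, at 303 to 509 FPKM.

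The anticoagulants and inhibitors of coagulation fell in WT in 5 of 5 cases, and 4 of 5 were higher than WT in each mutant. Serpind1, heparin cofactor II, read 146, 135 and 123 FPKM in Sham, 20.5, 21.5 and 16.2 in WT, 153, 198 and 170 in RIPK1 D138N, and 151, 212 and 155 in TNFR1/2 KO. It had the second largest fall in WT (-2.74, SE 0.183, limma adjusted p = 2.12e-07) and the largest rise of the set in TNFR1/2 KO against WT (3.08, SE 0.183, adjusted p = 2.26e-07). Its mutant libraries all lay above the Sham libraries, a difference that was not called. Serpinc1, antithrombin, read 1659, 1606 and 1778 FPKM in Sham, 390, 509 and 303 in WT, 1215, 2124 and 1955 in RIPK1 D138N, and 1458, 1945 and 1429 in TNFR1/2 KO. Proc, protein C, read 213, 262 and 314 FPKM in Sham, 59.5, 91.6 and 53.5 in WT, 297, 282 and 349 in RIPK1 D138N, and 319, 311 and 299 in TNFR1/2 KO. For Serpinc1 and Proc the mutants overlapped Sham and stood apart from WT (Proc, TNFR1/2 KO against WT: 2.21, SE 0.214, limma adjusted p = 5.52e-06). Serping1, the C1 inhibitor, stood at 364 ± 30.9, 118 ± 1.52, 277 ± 26.6 and 309 ± 13.2 FPKM in Sham, WT, RIPK1 D138N and TNFR1/2 KO (SD, n = 3). Pros1, protein S, a cofactor of protein C, was the 1 gene of this group not called against WT in either mutant. It ranged from 5.66 to 20.3 FPKM in WT and from 13.2 to 16.3 in the mutants. Its fall in WT (-0.88, limma adjusted p = 0.0263) held under 8 of 15 alternative settings, and was not called with only the groups compared or without Sham library b (-0.81), Sham library c (-0.85) or WT library b (-0.44).

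The 3 fibrinolysis genes fell in WT and then diverged. Plg, plasminogen, the precursor of the fibrin-cutting protease plasmin, read 518, 722 and 781 FPKM in Sham, 195, 201 and 176 in WT, 319, 594 and 446 in RIPK1 D138N, and 562, 515 and 491 in TNFR1/2 KO. All 6 mutant libraries exceeded those of WT (RIPK1 D138N 1.20, SE 0.230, limma adjusted p = 0.000805, and TNFR1/2 KO 1.45, adjusted p = 0.000225). With the Xist-positive libraries left out, Plg was no longer called in RIPK1 D138N against WT. The genes that restrain plasmin were not called higher than WT in either mutant. Cpb2, a carboxypeptidase that protects fibrin from lysis, read 440, 366 and 547 FPKM in Sham, 263, 198 and 342 in WT, 170, 188 and 167 in RIPK1 D138N, and 218, 183 and 165 in TNFR1/2 KO. RIPK1 D138N lay below WT without overlap (-0.58, SE 0.220, limma adjusted p = 0.0423), and the call held under 7 of 16 alternative settings. Both mutants were called lower than Sham for Cpb2 (-1.34, adjusted p = 0.00094, and -1.24, adjusted p = 0.00174, limma). Serpinf2, the plasmin inhibitor alpha-2-antiplasmin, averaged 388 ± 69.2 FPKM in Sham, 181 ± 8.38 in WT, 185 ± 31.6 in RIPK1 D138N and 239 ± 26.6 in TNFR1/2 KO (SD, n = 3). It was not called against WT in either mutant, although every TNFR1/2 KO library (209, 252 and 258 FPKM) lay above WT (174, 178 and 190). The ratio of Plg to Serpinf2 ran from 1.6 to 1.9 in Sham, 0.929 to 1.13 in WT, 2.0 to 2.7 in RIPK1 D138N and 1.91 to 2.69 in TNFR1/2 KO, lowest in WT and highest in the mutants.

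In the lectin pathway, the related genes Mbl1 and Mbl2 differed in where the mutants stood against Sham. Mbl1 and Mbl2 encode the mannose-binding lectins A and C, which bind sugars on microbes and damaged cells. Mbl1 read 384, 274 and 323 FPKM in Sham, 35.7, 47.5 and 34.7 in WT, 159, 121 and 135 in RIPK1 D138N, and 152, 134 and 121 in TNFR1/2 KO. Mbl2 read 167, 134 and 170 FPKM in Sham, 55.4, 76.5 and 37.9 in WT, 322, 628 and 612 in RIPK1 D138N, and 351, 434 and 266 in TNFR1/2 KO. Both fell in WT and both were higher in the mutants than in WT, but Mbl1 remained below all Sham libraries and Mbl2 was above them all. Against Sham, Mbl1 was called lower in both mutants (-1.23, SE 0.189, adjusted p = 0.000639, and -1.25, adjusted p = 0.000632, limma). Mbl2 was called higher in both (1.67, SE 0.303, adjusted p = 0.00176, and 1.13, adjusted p = 0.0166, limma). In RIPK1 D138N the call was lost without the Xist-positive libraries (1.04). In TNFR1/2 KO it held under 12 of 15 alternative settings, and was lost with no filter, without Sham library b or without TNFR1/2 KO replicate 2. The ratio of Mbl2 to Mbl1 ran from 0.434 to 0.527 in Sham, 1.09 to 1.61 in WT and 2.19 to 3.23 in TNFR1/2 KO, and was 2.03, 5.21 and 4.53 in RIPK1 D138N. Masp1 and Masp2 encode proteases that the lectins carry. Masp2, which cuts C4 and C2, went from 123 ± 10.7 FPKM in Sham to 28.4 ± 5.78 in WT, with 100 ± 25.0 in RIPK1 D138N and 97.4 ± 16.3 in TNFR1/2 KO (SD, n = 3). Masp1 lay between 11.8 and 24.5 FPKM in all 12 libraries, and its fall in WT was at the threshold (-0.65, SE 0.264, limma adjusted p = 0.0499) and held under 6 of 15 alternative settings. Against WT, Masp1 was called higher in TNFR1/2 KO (0.73, limma adjusted p = 0.0373), a call that held under 7 of 15, and not in RIPK1 D138N (0.59, adjusted p = 0.0787).

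**Figure D3:**
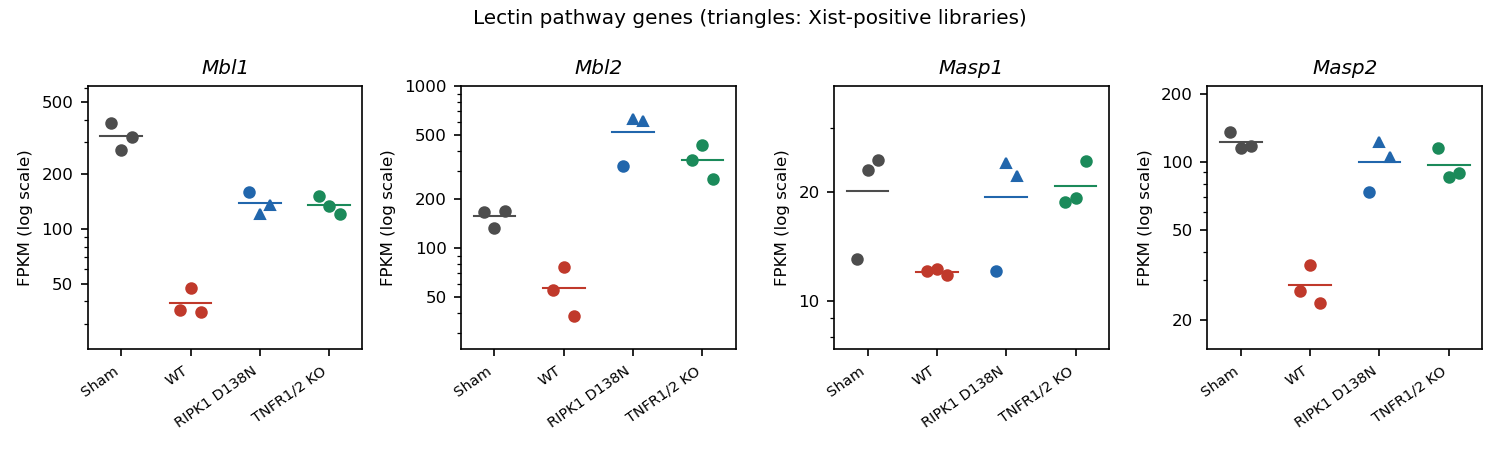
FPKM on a log scale in each library (points) with group means (lines) for the lectin genes Mbl1 and Mbl2 and the proteases Masp1 and Masp2. Mbl1 stays below Sham in the mutants at 121 to 159 FPKM, while Mbl2 lies above Sham at 266 to 628 FPKM.

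C2, C3 and C4b fell in WT in 3 of 3 cases, and C2 and C4b were called higher than WT in both mutants. C3, the protein on which all pathways converge, read 713, 1202 and 1494 FPKM in Sham, 414, 324 and 488 in WT, 311, 890 and 765 in RIPK1 D138N, and 548, 618 and 570 in TNFR1/2 KO. C3 was called in neither mutant, although every TNFR1/2 KO library lay above WT and below Sham, and RIPK1 D138N replicate 1 lay below all WT libraries. Replicates 2 and 3 of RIPK1 D138N had 2.66-fold more C3 than replicate 1. Without replicate 1, C3 was called higher in RIPK1 D138N than in WT (1.03, limma adjusted p = 0.00982). All groups shared 1 estimate of the spread. With the Xist-positive libraries out of it, C3 in TNFR1/2 KO was called lower than Sham (-0.91, limma adjusted p = 0.0294). It was still not called against WT there (0.52, limma adjusted p = 0.135). C2, part of the classical C3-cutting protease, stood at 37.0 ± 6.56, 17.2 ± 2.84, 36.3 ± 4.30 and 51.7 ± 1.81 FPKM in Sham, WT, RIPK1 D138N and TNFR1/2 KO (SD, n = 3). C4b, which supplies the other part, averaged 395 ± 93.4, 174 ± 16.5, 323 ± 52.3 and 341 ± 59.6 FPKM in these groups. Cfb, the factor B of the alternative pathway, had a small difference in WT. It read 611, 542 and 617 FPKM in Sham, 413, 487 and 424 in WT, 590, 597 and 706 in RIPK1 D138N, and 652, 586 and 445 in TNFR1/2 KO. The WT libraries lay below Sham without being called (-0.42, SE 0.183, limma adjusted p = 0.0667), and after median-of-ratios scaling the difference was 0.07. C2 and Cfb lie next to each other on chromosome 17 and share a locus in the deposited table, so fragments may have been shared between them.

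The terminal complement genes had the widest gap between the mutants among the roles, with a median log2 difference of -1.43 (RIPK1 D138N minus TNFR1/2 KO), though none was called. Of these 6 genes, 5 fell in WT, 5 were higher than WT in TNFR1/2 KO and only Hc and C8g in RIPK1 D138N. C6 read 59.1, 76.7 and 79.8 FPKM in Sham, 21.9, 25.3 and 14.6 in WT, 71.7, 1.48 and 1.28 in RIPK1 D138N, and 68.3, 91.7 and 99.0 in TNFR1/2 KO. RIPK1 D138N replicate 1 was therefore within the Sham range, and replicates 2 and 3 were below every WT library. From steps in the low FPKM values, of which 66.7% to 70.4% came out whole in these 3 libraries, C6 was estimated to rest on 125 and 83 fragments in replicates 2 and 3 and on 5541 in replicate 1.

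The same libraries were low for C8a, C8b and C9. C8a, a subunit of C8, read 229, 266 and 334 FPKM in Sham, 45.0, 65.1 and 31.4 in WT, 287, 55.7 and 64.3 in RIPK1 D138N, and 365, 230 and 284 in TNFR1/2 KO. C8b, a second subunit, read 158, 154 and 141 FPKM in Sham, 37.6, 42.2 and 26.1 in WT, 127, 40.1 and 34.8 in RIPK1 D138N, and 197, 156 and 158 in TNFR1/2 KO. C9, which polymerises into the pore, read 366, 334 and 358 FPKM in Sham, 86.5, 76.6 and 66.8 in WT, 316, 94.9 and 96.3 in RIPK1 D138N, and 423, 318 and 370 in TNFR1/2 KO. For each of the 3, replicate 1 stood near Sham, and replicates 2 and 3 stood within or just above the WT range. Replicate 1 exceeded the mean of the other replicates 51.9-fold for C6, 4.79-fold for C8a, 3.39-fold for C8b and 3.30-fold for C9. Only these 4 of the 38 genes were at least 2-fold above both replicates, where 4.29% of all genes were, and only C3 was at least 2-fold below both, where 5.3% were. Replicates 2 and 3 are the Xist-positive libraries, with almost no Ddx3y, and they differed from replicate 1 in cell type marker lists too. The 8 sinusoidal endothelium markers summed to 19.3, 103 and 68.1 FPKM in replicates 1, 2 and 3, and the 6 platelet and megakaryocyte markers to 77.5, 4.39 and 5.36. The 10 hepatocyte markers differed less, at 34543, 38217 and 38541 FPKM, and did not move together. Apoa1, Cyp3a11 and Cyp2e1 were higher in replicate 1 than in replicates 2 and 3, and the rest of that list was lower. The part of these differences and of the Xist and Ddx3y differences in the terminal complement values was not tested.

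C8g and Hc did not split. C8g, the remaining subunit of C8, read 482, 321 and 345 FPKM in Sham, 53.5, 85.2 and 47.5 in WT, 290, 265 and 287 in RIPK1 D138N, and 267, 269 and 206 in TNFR1/2 KO. The ratio of C8a to C8g was 0.993 in RIPK1 D138N replicate 1 and 0.21 and 0.224 in replicates 2 and 3, against 0.476 to 1.38 in the other 9 libraries. Hc, which encodes C5, read 84.0, 110 and 88.9 FPKM in Sham, 30.2, 19.8 and 25.9 in WT, 54.9, 56.0 and 52.6 in RIPK1 D138N, and 95.9, 78.2 and 93.4 in TNFR1/2 KO. All 3 RIPK1 D138N libraries lay between WT and the other 2 groups. Hc was called higher than WT (1.10, SE 0.179, limma adjusted p = 0.00024) and lower than Sham (-0.77, SE 0.179, adjusted p = 0.00696) there. The call against Sham was lost after median-of-ratios scaling, and also without the Xist-positive libraries, where replicate 1 alone gave -0.76.

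**Figure D4:**
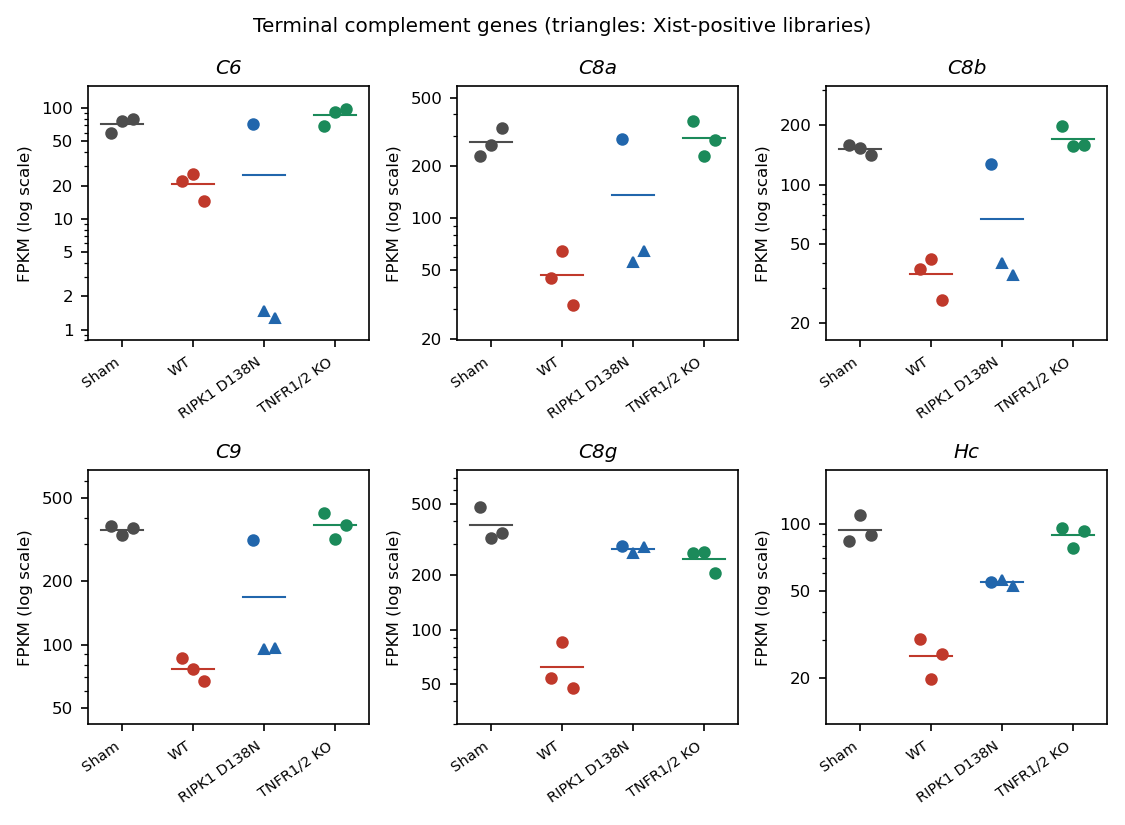
FPKM on a log scale in each library (points) with group means (lines) for the 6 terminal complement genes. Triangles, the Xist-positive RIPK1 D138N replicates 2 and 3, are at 1.48 and 1.28 FPKM for C6 and near WT for C8a, C8b and C9, while C8g and Hc show no such split.

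The calls of C6 in WT and TNFR1/2 KO depended on the spread among the RIPK1 D138N libraries. C6 was not called in WT against Sham (-1.78, SE 0.946, limma adjusted p = 0.124), since all groups shared 1 estimate of the spread. With the Xist-positive libraries out of that estimate, the same difference had an SE of 0.232 and an adjusted p of 4.78e-05 by limma, and TNFR1/2 KO was then called higher than WT for C6 (2.03, adjusted p = 2.67e-05). RIPK1 D138N was called lower than Sham for C6, C8a, C8b and C9 (-3.28, -1.42, -1.41 and -1.30, limma adjusted p = 0.0207, 0.0441, 0.0142 and 0.0167). With the Xist-positive libraries left out, so that replicate 1 alone stood for the mutant with the spread of the other groups, these differences were 0.01, 0.07, -0.25 and -0.16 and none was called. Replicate 1 was then called higher than WT for all 4, C9 among them (2.04, SE 0.262, limma adjusted p = 0.000246).

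Directly compared, the mutants differed in 0 of the 38 genes, where limma called 0.35% of all genes higher and 0.58% lower in RIPK1 D138N, and 1444 genes had an unadjusted p under 0.05. Of the 38, 8 did (F11, Fga, C2, Hc, C6, C8a, C8b and C9), each lower in RIPK1 D138N. After median-of-ratios scaling 0 of the 38 were called as well, where 0.367% of all genes were called higher and 0.341% lower. The lowest log2 differences, RIPK1 D138N minus TNFR1/2 KO, were -3.54 for C6 (SE 0.946, limma adjusted p = 0.111), -1.57 for C8b (SE 0.375, adjusted p = 0.0765), -1.50 for C8a (SE 0.491, adjusted p = 0.199) and -1.36 for C9 (SE 0.358, adjusted p = 0.103). Hc followed at -0.69 (SE 0.179, limma adjusted p = 0.0994) after F11. The highest were 0.53 for Mbl2, 0.36 for F7, 0.22 for Kng1 and 0.19 for C8g, and for each of these the groups overlapped. Leaving out RIPK1 D138N replicate 1 gave 5 genes called lower, where 2.69% of all genes were called lower and 2.33% higher. They were C6 (-5.18, adjusted p = 2.71e-08), C9 (-1.93, adjusted p = 3.74e-05), C8b (-2.15, adjusted p = 5e-05), C8a (-2.25, adjusted p = 0.000492) and F11 (-1.03, adjusted p = 0.00522), all by limma. Leaving out replicates 2 and 3 instead called 0.

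**Figure D5:**
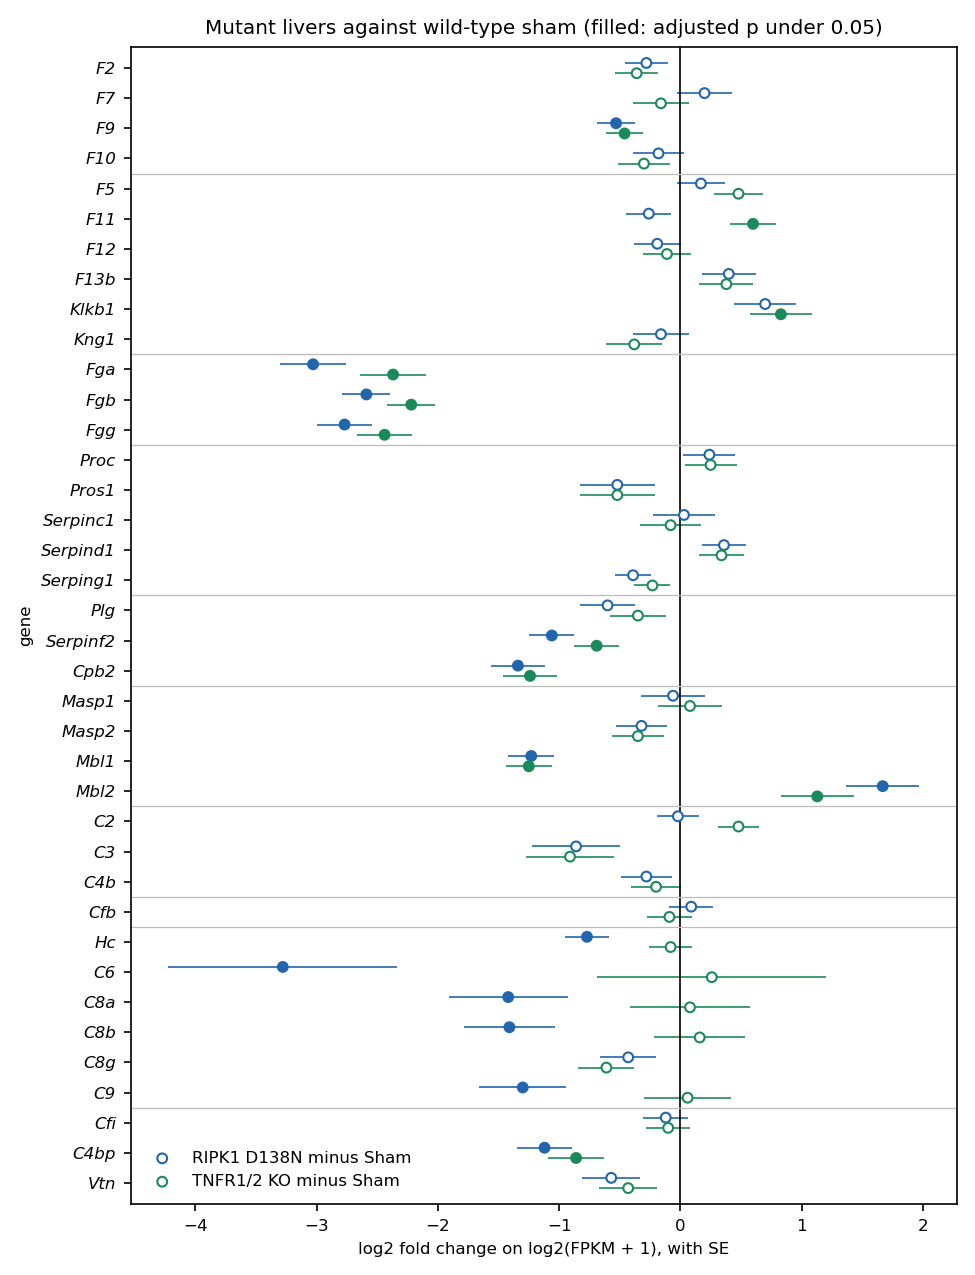
Log2 fold change of RIPK1 D138N (blue) and TNFR1/2 KO (green) against Sham for the 38 genes, with the SE, filled where the adjusted p was under 0.05. The fibrinogen chains lie lowest in both apart from C6, Mbl2 is higher than Sham in both, and C6, C8a, C8b, C9 and Hc are called lower in RIPK1 D138N but not in TNFR1/2 KO.

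The last 3 genes fell in WT and were higher in both mutants. Cfi, the protease that inactivates C3b and C4b, stood at 212 ± 18.2, 47.3 ± 2.98, 197 ± 39.6 and 199 ± 31.4 FPKM in Sham, WT, RIPK1 D138N and TNFR1/2 KO (SD, n = 3). Vtn, vitronectin, which binds the terminal complex, averaged 2122 ± 641, 358 ± 73.0, 1401 ± 225 and 1531 ± 97.8 FPKM in these groups. C4bp, which regulates the classical C3-cutting protease, stood at 258 ± 65.1, 57.1 ± 8.59, 118 ± 30.6 and 140 ± 24.1 FPKM. Of these, only C4bp was called lower than Sham, in both mutants (-1.12, adjusted p = 0.00377, and -0.86, adjusted p = 0.0166, limma), and neither call was kept under every alternative.

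Transcript length moved with the fold changes, and its part in them was not tested beyond the alternative below. Across the 11724 genes with a gene model, Spearman's rho between length and log2 fold change was 0.285 in WT against Sham, -0.276 in RIPK1 D138N against WT and -0.247 in TNFR1/2 KO against WT, as a description across genes. The median exon length was 2780 bases for the 38 genes and 3752 for all tested. With the length trend removed, 32 of the 38 were called lower in WT than in Sham, beside 3237 of all 11728 genes called lower and 3067 higher. In RIPK1 D138N, 24 were called higher and 4 lower than in WT, beside 3011 and 3042 of all genes. In TNFR1/2 KO, 28 were called higher and 4 lower than in WT, beside 2862 and 2840 of all genes.

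Other genes of the same systems, taken from lists, did not all follow. Of 25 other coagulation and fibrinolysis genes, 21 were tested, and 6 rose and 13 fell in WT against Sham. Of all genes, 16.4% were called higher and 41.9% lower there. Among those that rose were F3, which encodes tissue factor, the plasminogen activators Plat and Plau, Procr, the protein C receptor, and Thbd, thrombomodulin. Procr rose by 2.95 and Thbd by 1.38 on the log2 scale in WT. The falls were led by Serpina10, the inhibitor of factor Xa, Fgl1, a fibrinogen-like protein, and Hrg, a plasma glycoprotein (-3.06, -2.48 and -2.39). Serpina10 and Fgl1, like the fibrinogen chains, were called lower than Sham in both mutants (Serpina10 -2.61 and -2.55, Fgl1 -2.29 and -2.79), while Hrg was not. Against WT, 11 of the 21 were higher and 4 lower in RIPK1 D138N, where 29.8% and 21.9% of all genes were called. In TNFR1/2 KO, 10 were higher and 3 lower, where 29.6% and 17.5% were called.

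Of 28 other complement genes, 21 were tested, and 0 rose and 19 fell in WT against Sham, where 16.4% and 41.9% of all genes were called. The largest fall was that of Cfhr2, a plasma complement regulator (-3.03). Against WT, 15 were higher and 3 lower in RIPK1 D138N (29.8% and 21.9% of all genes), and 12 higher and 3 lower in TNFR1/2 KO (29.6% and 17.5%). Mean Cfhr2 was 512 FPKM in Sham, 60.3 in WT, 337 in RIPK1 D138N and 363 in TNFR1/2 KO. C1qa and C1qb, chains of C1q, which macrophages make, were called lower than WT in both mutants, and C1qc in TNFR1/2 KO. C1qa averaged 30.7 FPKM in Sham, 11.8 in WT, 6.98 in RIPK1 D138N and 3.90 in TNFR1/2 KO. The 3 C1q genes are also on the list of Kupffer cell and macrophage markers. The 10 list genes summed to 86.6 to 130, 77.6 to 109, 25.0 to 31.0 and 15.9 to 20.4 FPKM in those groups. Cd68 made up much of the WT sum, averaging 49.6 FPKM there against 2.36 in Sham. Most of the list had already dropped in WT: limma called 5 of its 8 tested genes down against Sham and 1 up (median log2 fold change -1.06). The shares of all genes called there were 41.9% down and 16.4% up. Clu, clusterin, which binds the terminal complex, averaged 839 FPKM in both Sham and WT and was called lower than both in RIPK1 D138N (-0.64 and -0.65). Between the mutants limma called 0 genes of either list, with 2 of the coagulation and 7 of the complement genes at an unadjusted p under 0.05.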

How the data were processed

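The authors deposited FPKM values for every gene in each of the 12 libraries, as 1 table. The submitters' processing notes name the mm10 build and STAR 2.5.4a, Cuffdiff and Cufflinks 2.2.1, and per the labels' protocols RNA was taken up in Trizol and libraries were made with NEB RNA Ultra. No source used here states a strand setting. Of the 53796 table entries, 53702 (99.8%) have a GENCODE M21 gene model, and the table's locus equalled the GENCODE bounds for 24 of the 38 genes. For the others the locus differed, as for C2 and Cfb, which share one. Whether the rest share a locus with a neighbour was not tested, so their FPKM may hold fragments of another gene.

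FPKM carry no counts. Low values lay on steps of whole fragments (61.7 to 72.6% within 0.1 of a whole number), which put 1 FPKM per kilobase at 11.6 to 63.1 fragments. The fewest were in Sham libraries b and c (11.7 and 11.6), while Sham library a had 26.5. An exact 0 can be a failed estimate.

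The 38 genes, their roles and all lists were chosen with earlier results of these data known. limma 3.58.1 in R 4.3.3 with a mean-variance trend was fitted to log2(FPKM + 1), as 1 model of 4 group means over 12 libraries, for the 11728 genes with 1 FPKM or more in 3 or more libraries. Adjustment was by Benjamini-Hochberg within a comparison, at 0.05. A fold on this scale understates changes of low genes. On simulated data (11728 genes, 200 changed) 58, 61, 53, 59, 57 and 72% of changes of 1 log2 unit and 93 to 98% of changes of 2 were recovered, in the order WT against Sham, RIPK1 D138N and TNFR1/2 KO against WT, each against Sham, and the mutants directly. False calls were 12.1, 1.3, 5.1, 6.7, 4.3 and 3.4% of calls. Each comparison was simulated in 1 random draw, so the differences between these figures may be noise of the draw. Changes were planted only in genes with a mean above 2 on the log2 scale. The comparisons with WT or Sham called far more genes than the 200 changed here.

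Values per library are given for fixed examples of each role, for the 4 largest rises and falls of each comparison and for genes called against the direction of the rest. Alternatives were a pseudocount of 0.1, no filter or a filter of 5 FPKM, median-of-ratios scaling, removal of a length trend, no variance trend, only the groups compared, and libraries left out. Combinations of the scaling with the Xist-positive libraries left out, and their removal from the shared spread, were added after the data were seen, as was the 2-fold comparison within RIPK1 D138N. Some genes of the 2 lists of other pathway genes enter the counts but are not reported here by name.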

Additional observations from a re-analysis of the deposited data

Results flagged for a closer look

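For C8b, every RIPK1 D138N library lay below the Sham mean of 151 FPKM (127, 40.1 and 34.8 FPKM) and every TNFR1/2 KO library above it (197, 156 and 158 FPKM). The log2 difference, RIPK1 D138N minus TNFR1/2 KO, was -1.57, which missed the threshold in the direct comparison (SE 0.375, limma adjusted p = 0.0765).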

How the results depend on the processing

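Of the 122 calls of single genes in the 5 comparisons with WT or Sham, 91 were called under every alternative: 31 of 36 in WT against Sham, 24 of 29 and 28 of 32 in RIPK1 D138N and TNFR1/2 KO against WT, and 3 of 14 and 5 of 11 in the same mutants against Sham. Counts moved as follows, and the cause was not tested. In TNFR1/2 KO against WT, 1 gene in place of 3 was lower with no filter. In RIPK1 D138N against Sham, 1 was higher in the reported fit, 4 after median-of-ratios scaling, 3 with the length trend removed, 2 with only the groups compared, and 0 without the Xist-positive libraries under either scaling. There, 13 were lower in the reported fit, 8 after median-of-ratios scaling, 8 without the Xist-positive libraries and 4 under both changes. In TNFR1/2 KO against Sham, 3 were higher in the reported fit, 0 with no filter, 6 after median-of-ratios scaling, 6 with the length trend removed and 0 to 3 with a library left out (1 without Sham library a, TNFR1/2 KO replicate 2 or 3, and 0 without Sham library b). There, 8 were lower in the reported fit, 5 after median-of-ratios scaling, 5 with the length trend removed and 5 to 7 with a library left out (5 without TNFR1/2 KO replicate 1). Between the mutants, 1 (F11, limma adjusted p = 0.0423) was lower with the 5 FPKM filter, and 0 to 5 with a library left out (5 without RIPK1 D138N replicate 1). Called genes that changed sign were F11 in WT against Sham (0.12, length trend removed) and, in RIPK1 D138N against Sham without the Xist-positive libraries, C6 (0.01) and C8a (0.07), and with median-of-ratios scaling as well C6 (0.38), C8a (0.45), C9 (0.21) and C8b (0.12). With the replicate block, which could be fitted only between the mutants, 0 were higher and 0 lower. Libraries of the mutants with the same number correlated at -0.0975, -0.202 and 0.0574 after group means were removed. Whether a number marks a shared animal, litter or day is not stated, and so few libraries cannot settle it. A lone remaining library was assumed to vary like the other groups.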

Other observations

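Markers of other cells moved between groups beside the genes above. The 5 red cell genes summed to 167 to 317 FPKM in Sham, 79.9 to 153 in WT, 890 to 1766 in RIPK1 D138N and 964 to 2004 in TNFR1/2 KO. In each mutant 4 of 5 were called higher than Sham, where 7.51% (RIPK1 D138N) and 7.46% (TNFR1/2 KO) of all genes were. The 7 stellate cell and fibroblast genes summed to 56.1 to 83.3, 130 to 159, 134 to 154 and 56.9 to 90.9 FPKM in the same order. Dcn made up most of each sum, averaging 107 FPKM in WT and 119 in RIPK1 D138N, so like sums hide changes of the others. In RIPK1 D138N against WT, 3 of the 7 were called higher and 2 lower, where 29.8% and 21.9% of all genes were. Between the mutants, 2 of the 7 were called higher in RIPK1 D138N than in TNFR1/2 KO and 0 lower, where 0.35% and 0.58% of all genes were. The 8 neutrophil genes ranged widely within groups, from 5.01 to 282 FPKM in WT and from 4.62 to 209 in RIPK1 D138N.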
